A study of Mus musculus with 6 samples.

Results

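The secreted, endoplasmic reticulum (ER) resident and small selenoproteins Selenop, Selenow, Selenom, Selenok, Selenos, Selenon, Selenof, Selenoh and Selenot were examined together with Sephs2, the selenophosphate synthetase that is itself a selenoprotein. These 10 genes were taken by symbol from 41079 genes, all 10 were found, and all 10 had enough counts to be tested. Microglia from brains of C57Bl/6N mice aged 1 to 3 days were grown in mixed glial flasks with L-929 conditioned medium, collected by shaking, and replated. RNA of 3 control replicates, kept in DMEM/F12 without serum, and of 3 replicates under optimized conditions was sequenced. According to the labels the stimulated cultures received human TGFbeta, human IL34 and CX3CL1 at 100 ng/mL each. The study's methods add cholesterol, insulin-transferrin-selenium and a collagen IV coating, so selenium was supplied together with all other supplements and their contributions cannot be told apart.

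Selenoproteins carry selenocysteine (Sec), the selenium analogue of cysteine, which is inserted at an in-frame UGA codon that would otherwise end translation. Insertion needs a hairpin in the 3′ untranslated region, its binding protein Secisbp2, the elongation factor Eefsec and a dedicated tRNA, whose selenium donor is made by Sephs2. Selenop is the secreted selenium carrier of plasma and brain and is taken up through Lrp8, while the ER members take part in protein folding, redox control and removal of misfolded proteins.

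The UGA codons are what these 10 mRNAs have in common, so the coding sequence around the first of them is shown for each member. Sequences were read from GENCODE M39 transcripts on GRCm39, 5′ to 3′ on the coding strand, with Sec codons in capitals (written TGA) and up to 24 coding bases on each side.
Selenop: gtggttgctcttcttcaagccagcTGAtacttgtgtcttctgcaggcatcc
Sephs2: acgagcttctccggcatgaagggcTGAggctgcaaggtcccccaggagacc
Selenow: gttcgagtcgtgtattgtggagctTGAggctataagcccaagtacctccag
Selenoh: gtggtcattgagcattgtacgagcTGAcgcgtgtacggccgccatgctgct
Selenot: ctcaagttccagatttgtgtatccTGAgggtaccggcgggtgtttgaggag
Selenom: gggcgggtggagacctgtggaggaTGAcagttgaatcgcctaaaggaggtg
Selenof: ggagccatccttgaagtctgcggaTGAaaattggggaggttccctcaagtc
Selenon: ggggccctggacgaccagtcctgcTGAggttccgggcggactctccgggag
Selenok: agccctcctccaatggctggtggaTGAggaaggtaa
Selenos: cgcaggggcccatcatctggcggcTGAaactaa

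In Selenow, Selenoh, Selenot and Selenom, a cysteine codon lies 3 codons before the Sec codon. In Selenof it lies 2 codons before, and in Selenon it is the codon directly before. Selenok and Selenos carry the Sec codon at the very end of the coding sequence, at codon 92 of 94 and codon 189 of 190, so their lines end with the stop codon taa.

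Selenop differs from the other 9, which hold 1 Sec codon each, in that its coding sequence of 380 codons holds 10. The first is codon 59, in exon 2 at chr15:3304330-3304332 on the plus strand, and the remaining 9 lie in exon 5. The stretch from 4 codons before the fourth Sec codon (codon 318) to the stop codon is shown because it holds 7 of the 10.
Selenop C-terminal part: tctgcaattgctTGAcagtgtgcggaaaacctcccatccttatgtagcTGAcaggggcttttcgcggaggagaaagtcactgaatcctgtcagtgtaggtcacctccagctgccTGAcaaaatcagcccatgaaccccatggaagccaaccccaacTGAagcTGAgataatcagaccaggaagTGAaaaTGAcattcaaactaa

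Count totals per library were between 20628148 and 27261839. Of 14618 genes tested, 29.8% passed the threshold of 0.05 on the p-value of edgeR's quasi-likelihood test after Benjamini-Hochberg adjustment, 14.7% higher and 15.2% lower in optimized cultures. Higher genes made up 49.1% of the calls with TMM scaling and 32.3% with library size alone, which moved the median log2 fold change of all genes from 0.0079 to -0.12. Levels of single genes are given as CPM, the usual depth-scaled count, here relative to the TMM-scaled library size. The microglial markers Csf1r, Aif1, Itgam, Cx3cr1, Tmem119, P2ry12 and Olfml3 summed to between 3635 and 3801 CPM in control and between 5318 and 5628 CPM in optimized cultures, with 5 of 7 higher and 2, Csf1r and Aif1, lower. Summed astrocyte markers were between 36.9 and 38.6 CPM in control and 24.9 and 29.8 CPM in optimized cultures (7 genes, 1 lower), oligodendrocyte markers between 188 and 208 and between 197 and 237 (6 genes, 1 higher and 1 lower), and neuron markers between 3.07 and 4.72 and between 5.30 and 6.34 (6 genes, of which 4 were tested and 1 was higher). Fibroblast markers were between 34.5 and 48.8 CPM in control cultures, and were 48.5, 31.0 and 151 CPM in optimized replicates 1 to 3, with 0 of 6 called. Without optimized replicate 3, 6 members were higher and 0 lower by edgeR, beside 1702 higher and 1787 lower of all 15039 genes tested. No marker was at 0 in every library, though the neuronal Snap25 and Syt1 were at 0 in most. The part of these other cells in the results was not tested, and in bulk RNA fewer cells of a type cannot be told apart from less RNA per cell.

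The levels of the members spanned a wide range, and Selenop led in both conditions. Levels between genes are compared as FPKM, the authors' values per kilobase of gene. Selenop had 674 ± 65.5 FPKM in control and 498 ± 33.6 FPKM in optimized cultures (SD, n = 3 each), which ranked it 69th and 85th among the 14618 genes tested. Selenof, a partner of the glycoprotein folding sensor UGGT, was next with 141 ± 9.83 and 181 ± 22.7 FPKM. In control cultures the order went on with Selenok, Selenot, Selenos and Selenow, from 59.4 down to 32.3 FPKM, and no neighbours overlapped down to Selenow. Sephs2 and Selenon, at 23.0 and 22.2 FPKM, overlapped each other, as did Selenoh and Selenom at 7.36 and 7.32 FPKM.

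In optimized cultures Selenow stood next after Selenof with 79.2 ± 22.03 FPKM (SD, n = 3), and its libraries overlapped those of Selenok at 56.4 ± 6.94 FPKM. Selenok overlapped Selenot, Selenos overlapped Sephs2, and Selenom and Selenoh, at 16.8 and 16.5 FPKM, again overlapped at the bottom. The gene lengths behind FPKM matter for this order. With CPM per kilobase of all GENCODE exons, Selenop remained first in both conditions at 225 and 184, Selenow was second in optimized cultures at 82.9, and Selenof followed at 51.0. On that scale Selenok was only at rank 7 in control (22.3) and rank 8 in optimized cultures (23.4). The mean of Selenow in control, 30.5, was already above those of Selenos (28.9) and Selenok.

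**Figure D1:**
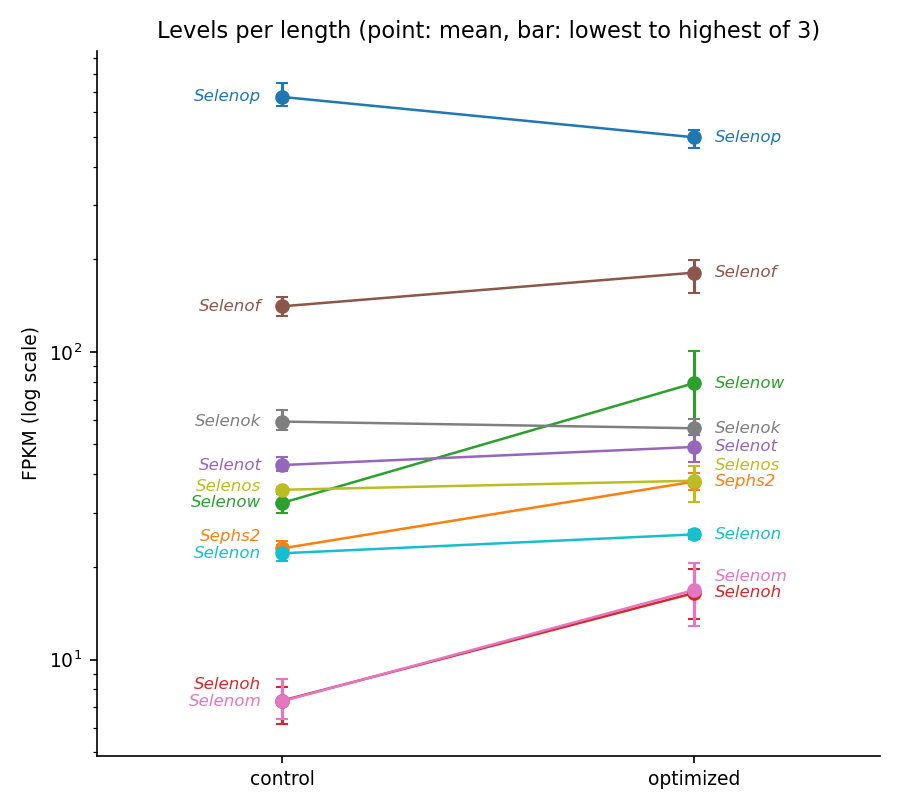
FPKM on a log axis in control and optimized cultures for each of the 10 genes. Points are means of 3 libraries and bars run from the lowest to the highest library. Selenop lies far above the rest in both conditions, and Selenow moves from 32.3 to 79.2 FPKM past Selenok, Selenot and Selenos. The order below Selenop depends on the gene lengths used.

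Between the conditions, edgeR called 7 of the 10 members higher in optimized cultures and 0 lower, against 14.7% and 15.2% of all genes tested. The median log2 fold change of the 10 was 0.42, beside 0.0079 for all genes tested. In 8 of the 10 the control and optimized libraries did not overlap in CPM, which held for 43.9% of all genes. At an unadjusted p-value under 0.05, 7 were higher and 1, Selenop, was lower, with no count over all genes made at that level. DESeq2 called 7 higher and 1 lower, beside 2142 higher and 2210 lower of all 24007 genes tested. The increases fell into a group above 2-fold (Selenow, Selenom and Selenoh), Sephs2 below that, and smaller changes in Selenof, Selenon and Selenot.

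**Figure D2:**
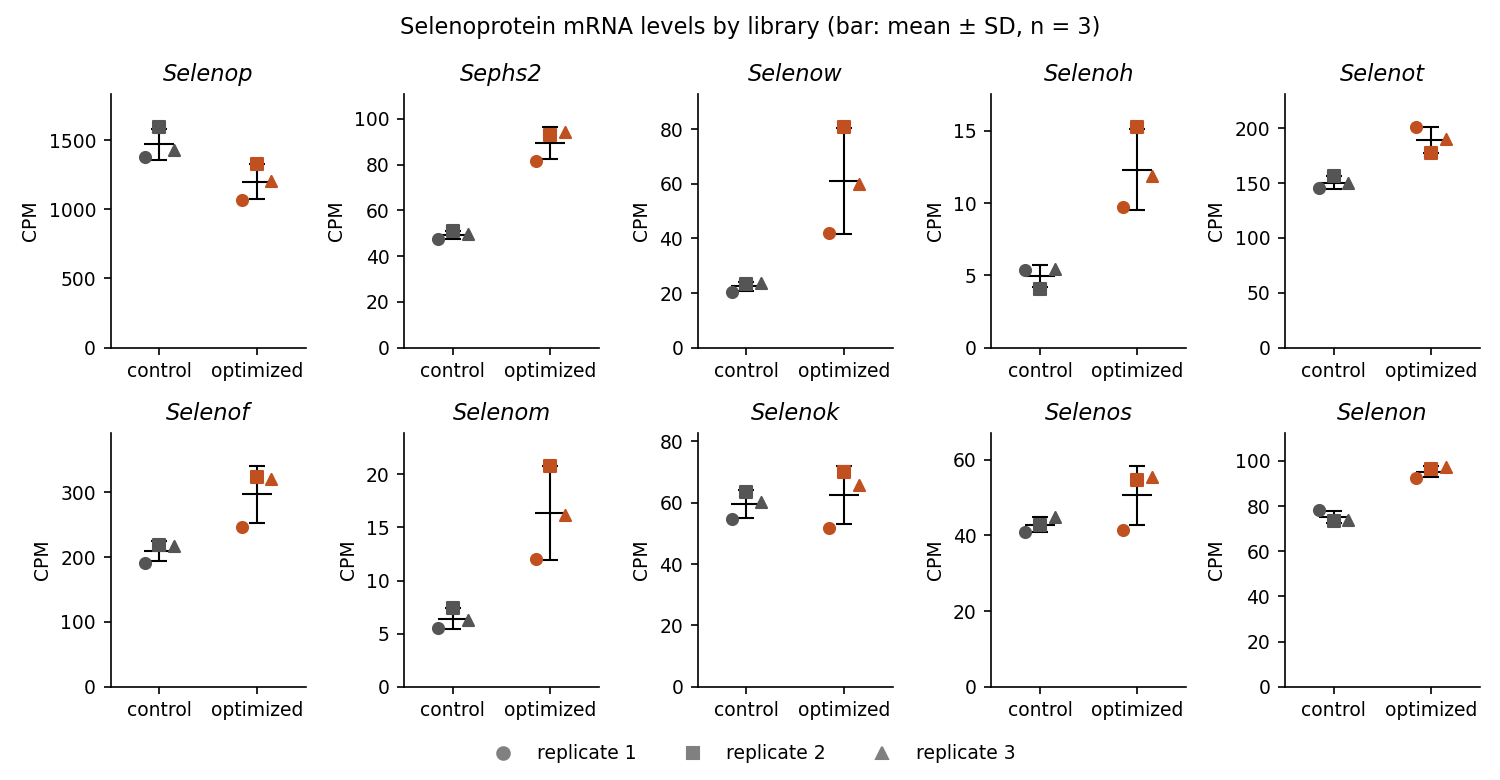
CPM after TMM scaling (linear axes from 0) in each library for the 10 members, with replicates 1 to 3 as circles, squares and triangles, horizontal marks for the mean and bars for the SD (n = 3). Optimized libraries lie above all control libraries in 7 members, below them in Selenop, and overlap them in Selenok and Selenos.

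Selenop, on the plus strand of chromosome 15 from 3298029 to 3313686 (GRCm39), was the sole member with a lower mean in TMM-scaled CPM, while in FPKM the mean of Selenok was lower as well. Control libraries 1 to 3 had 1379, 1597 and 1432 CPM, and optimized libraries 1 to 3 had 1070.3, 1324 and 1206 CPM. Every optimized library lay below every control library, with optimized replicate 2 closest to the controls. The log2 fold change came to -0.29 (standard error 0.11), a fold of 0.817 with a 95% interval from 0.686 to 0.973, and the edgeR adjusted p-value was 0.080. With library size alone it was -0.43 with an adjusted p-value of 0.0067, and without optimized replicate 2 it was -0.38 with an adjusted p-value of 0.033 (edgeR), so this gene was on either side of the threshold depending on scaling and libraries. Exons of Ccdc152 on the opposite strand share 1193 bases with those of Selenop. Its counts were 3990, 5237 and 4587 in the controls against 3061, 4221 and 3334 under optimized conditions, and as the strand setting of the counting is not given, reads of the pair cannot be told apart there.

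Lrp8, the Selenop receptor, averaged 9.66 ± 1.79 CPM in control against 8.96 ± 1.38 CPM (SD, n = 3 each). Its libraries overlapped, and the 95% interval of its log2 fold change, -0.11, ran from -0.49 to 0.28.

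Sephs2, which makes selenophosphate for Sec synthesis, is a gene with 1 exon on the minus strand of chromosome 7 from 126871051 to 126873227. It had 47.4, 50.9 and 49.6 CPM in control libraries and 81.6, 93.1 and 94.3 CPM in optimized libraries, so the groups were well apart. The log2 fold change was 0.86 (standard error 0.089, edgeR adjusted p = 5.6e-05), and 8.43% of all genes tested had a higher value. Sephs1, its paralog without Sec, had 28.4 ± 2.06 and 25.1 ± 1.89 CPM (SD, n = 3 each), with the log2 fold change at -0.18 (95% interval -0.41 to 0.049, edgeR adjusted p = 0.23).

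Selenow and Selenoh are small proteins with a thioredoxin-like fold, Selenow cytosolic and Selenoh nuclear, and their mRNAs are among those known to decline in tissues short of selenium. Selenow, on the minus strand of chromosome 7 from 15651133 to 15656327, had 20.3, 23.3 and 23.6 CPM in control and 42.1, 81.0 and 59.98 CPM in optimized libraries. The lowest optimized library was above the highest control library, and the optimized libraries differed among themselves by more than that gap. The log2 fold change was 1.44 (standard error 0.20), a fold of 2.72 with a 95% interval from 1.99 to 3.73 (edgeR adjusted p = 0.00042), and 3.61% of all genes had a higher value. Selenoh, on the minus strand of chromosome 2 from 84499405 to 84501114, had 5.38, 4.08 and 5.45 CPM in control and 9.75, 15.3 and 11.9 CPM in optimized libraries. It was again higher in every optimized library, at a low level of 100 to 149 counts per control library and 206 to 359 per optimized library. Its fold was 2.47 with a 95% interval from 1.84 to 3.34 (log2 fold change 1.31, edgeR adjusted p = 0.00058). Gpx1, cytosolic glutathione peroxidase and the best known of the selenium-sensitive mRNAs, went from 154 ± 22.1 to 379 ± 82.5 CPM (SD, n = 3 each), or 1.30 on the log2 scale (edgeR adjusted p = 0.00022).

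Among the 6 ER members, 4 were higher and 2 did not pass the threshold, beside 14.7% higher and 15.2% lower over all genes tested, and the sizes differed. Selenom, a thioredoxin-like protein of the ER lumen, lies on the plus strand of chromosome 11 from 3464684 to 3467551. It had 5.51, 7.42 and 6.30 CPM in control and 12.03, 20.8 and 16.2 CPM in optimized libraries, with no overlap. Its log2 fold change was 1.35 (standard error 0.20, edgeR adjusted p = 0.00064), a fold of 2.55 with a 95% interval from 1.86 to 3.49. Exons of Smtn on the opposite strand share 32 bases with Selenom, and Smtn had between 53 and 132 counts against 126 to 489 for Selenom.

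Selenof, the relative of Selenom that binds UGGT, lies on the plus strand of chromosome 3 from 144276065 to 144303441. It had 191 to 219 CPM in control libraries and 246, 324 and 321 CPM in optimized libraries. All optimized libraries were above the controls, the first by the smallest margin. The log2 fold change was 0.51 (standard error 0.12, edgeR adjusted p = 0.0094), and leaving out control replicate 1 raised the edgeR adjusted p to 0.055. Exons of Hs2st1 on the opposite strand share 450 bases with Selenof, and Hs2st1 had between 796 and 1049 counts against 4368 to 7604 for Selenof.

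Selenot, an ER membrane protein with a thioredoxin-like fold, on the plus strand of chromosome 3 from 58484057 to 58501499, had 145, 156 and 149.8 CPM in control and 201, 177 and 190.0 CPM in optimized libraries. The groups did not overlap in CPM but did in FPKM, at 40.9 to 45.6 against 43.7 to 53.8. Its log2 fold change was 0.33 (standard error 0.084, edgeR adjusted p = 0.014), but 0.21 (edgeR adjusted p = 0.18) with library size alone. Leaving out control replicate 1, control replicate 3 or optimized replicate 3 gave adjusted p-values of 0.070, 0.063 and 0.056.

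Selenon, an ER protein linked to calcium handling whose loss causes a congenital myopathy, lies on the minus strand of chromosome 4 from 134264892 to 134279511. It had 78.1, 73.3 and 73.8 CPM in control and 92.3, 96.4 and 97.1 CPM in optimized libraries, the tightest optimized libraries of all 10 members. Its log2 fold change was 0.34 (standard error 0.078, edgeR adjusted p = 0.0076), but 0.21 (edgeR adjusted p = 0.10) with library size alone.

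Selenok and Selenos are ER membrane proteins of the Derlin and p97 machinery that extracts misfolded proteins, and Selenok also serves protein palmitoylation with Zdhhc6. Selenok, on the plus strand of chromosome 14 from 29690265 to 29698398, had 54.6, 63.5 and 60.3 CPM in control and 51.7, 70.0 and 65.8 CPM in optimized libraries. Its optimized libraries lay on both sides of the controls, with a fitted log2 change of 0.072 (95% interval -0.20 to 0.34, edgeR adjusted p = 0.71) that was -0.066 with library size alone. Selenos, on the plus strand of chromosome 7 from 65729392 to 65739153, had 40.9, 42.7 and 44.8 CPM in control and 41.5, 54.8 and 55.4 CPM in optimized libraries. Optimized replicates 2 and 3 were above all controls and replicate 1 was within them, with a log2 fold change of 0.24 (95% interval -0.026 to 0.51, edgeR adjusted p = 0.17). Selenos passed the threshold in 2 of the 16 alternatives, without optimized replicate 1 (0.36, edgeR adjusted p = 0.0027) and with the trend on gene length removed (0.28, edgeR adjusted p = 0.015).

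**Figure D3:**
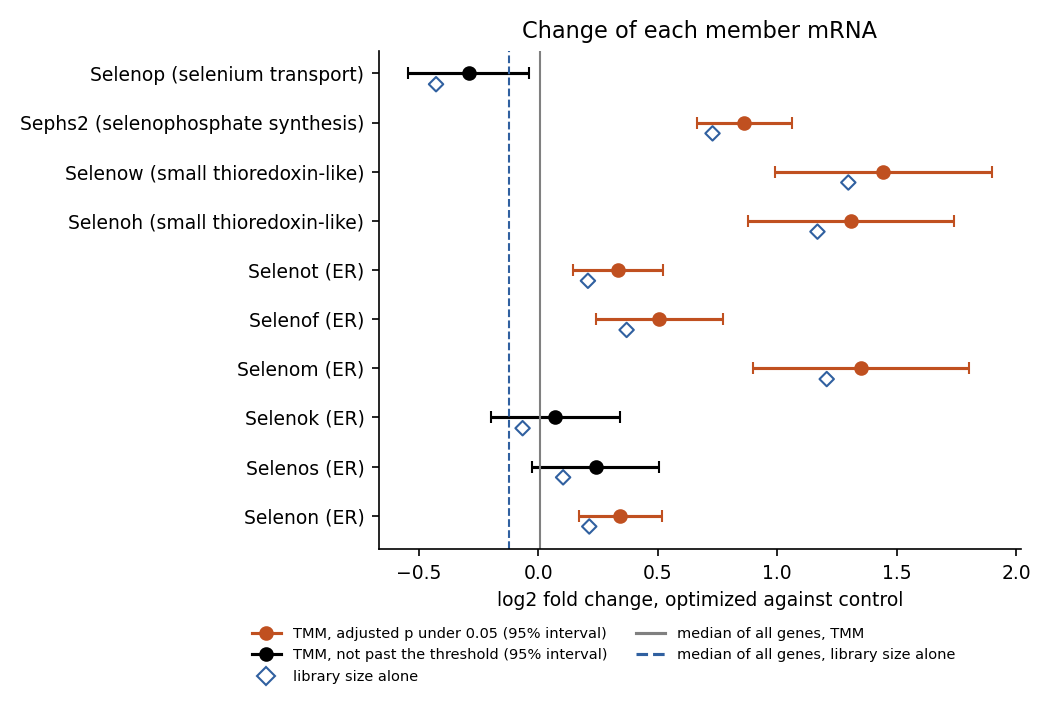
Log2 fold change of each member with its 95% interval (circles, TMM scaling) and with library size alone (diamonds). Vertical lines mark the median of all genes under each scaling, at 0.0079 and -0.12. Selenow, Selenom and Selenoh lie farthest to the right, Selenop is left of the median, and library size alone shifts every member to the left.

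The order of the libraries within a condition was much the same from member to member. Optimized replicate 1 was the lowest of the 3 optimized libraries in 9 of 10 members, the exception being Selenot, and optimized replicate 2 was the highest in 6. Control replicate 1 was the lowest control in 8 of 10. The spread was widest in Selenow, with a standard deviation of 0.47 on the log2 scale among optimized libraries, followed by Selenom with 0.40 and Selenoh with 0.32, against 0.04 in Selenon. When the tested genes were cut by length into 10 equal bins, these 3 and Selenok fell in the shortest bin. Over all genes of that bin, the median deviation from a gene's mean over the 6 libraries was -0.17 in optimized replicate 1 and 0.15 in optimized replicate 2, and in the longest bin it was 0.24 and -0.11. Between the conditions the median log2 fold changes of the bins ran from -0.038 to 0.091. With a trend on gene length removed from each library, a setting added after the data had been seen, the log2 fold changes were 1.46 for Selenow, 1.33 for Selenoh and 1.37 for Selenom. Selenop was then at -0.25 with an adjusted p-value of 0.039 (edgeR).

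As Selenop holds 10 Sec codons, its mRNA can be set against all other selenoprotein mRNAs in the same library, a ratio that no library scaling changes. The share falls when the other mRNAs rise as well as when Selenop falls, so it does not measure the change of Selenop alone. The annotation gives 24 selenoprotein genes with 33 Sec codons. When the FPKM of each gene was multiplied by its Sec codons, Selenop held 89.7%, 90.4% and 88.7% of Sec codons in control libraries and 82.7%, 80.9% and 80.8% in optimized libraries. Its share was lower in each optimized library than in any control, with means of 89.6% ± 0.86 and 81.4% ± 1.08 (SD, n = 3 each) (exact permutation, two-sided, p = 0.1, which is the lowest value 3 against 3 can reach). The other 9 members together held 4.94% ± 0.20 in control and 8.17% ± 0.32 in optimized cultures, and the 14 remaining selenoprotein genes 5.46% ± 0.66 and 10.4% ± 0.77 (SD, n = 3 each). Counted per mRNA, without weighting by Sec codons, Selenop made up 46.3% ± 2.29 of selenoprotein FPKM in control and 30.5% ± 1.55 in optimized cultures. The level depends on gene length, as with GENCODE exon lengths the Sec codon share of Selenop was 81.9% and 68.7%.

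**Figure D4:**
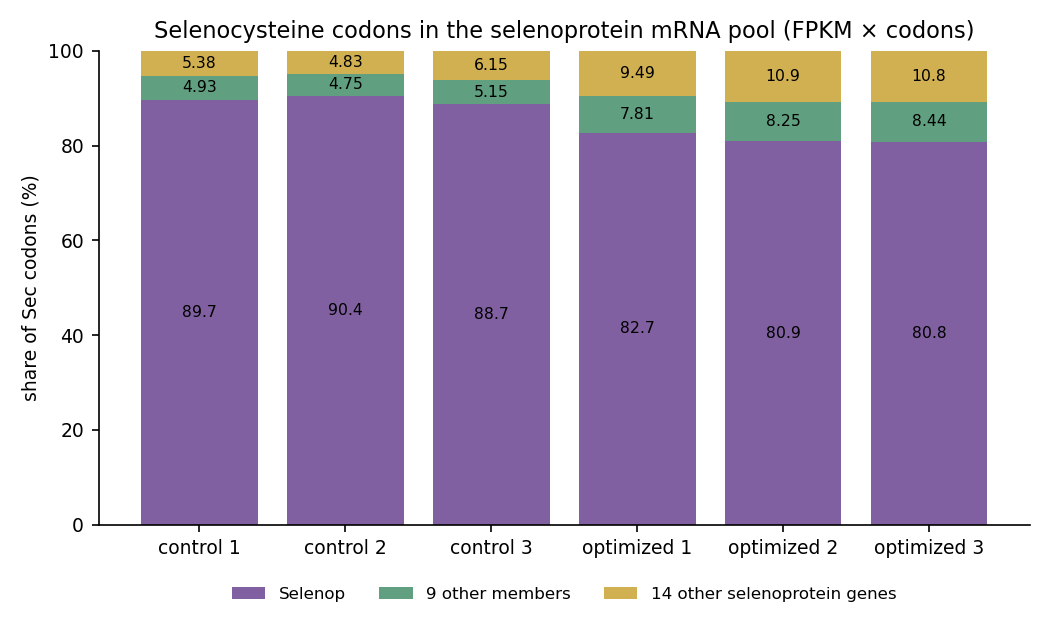
Share of Sec codons in the selenoprotein mRNA pool of each library, computed as FPKM times Sec codons per gene, stacked to 100% for Selenop, the 9 other members and the 14 other selenoprotein genes. Selenop takes between 88.7% and 90.4% in control and between 80.8% and 82.7% in optimized libraries.

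The other selenoproteins were mostly redox enzymes, and 9 of 14 had enough counts to test, with Gpx2, Dio1, Dio2, Dio3 and Selenov too low. Of the 9, 3 were higher (Msrb1, Gpx3 and Gpx1), 1 was lower and 5 did not pass the threshold, beside 14.7% higher and 15.2% lower over all genes tested, with a median log2 fold change of 0.24. Msrb1, methionine sulfoxide reductase B1, rose from 26.2 ± 1.88 to 87.6 ± 23.6 CPM (SD, n = 3 each), or 1.74 on the log2 scale, and Gpx3, the secreted glutathione peroxidase, had 1.71. Txnrd1, cytosolic thioredoxin reductase, fell from 276 ± 11.1 to 204 ± 16.3 CPM (SD, n = 3 each), or -0.44 on the log2 scale (standard error 0.089, edgeR adjusted p = 0.0043). Gpx4, which detoxifies lipid hydroperoxides, had 181 ± 24.6 and 214 ± 41.2 CPM (SD, n = 3 each) with overlapping libraries, and a log2 fold change of 0.24 (95% interval -0.089 to 0.58).

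Genes that handle selenium or insert Sec were taken as a separate list. Of 14 (Sephs1, Pstk, Sars1, Sepsecs, Secisbp2, Eefsec, Trnau1ap, Rpl30, Eif4a3, Trit1, Alkbh8, Scly, Lrp8 and Lrp2), 0 were called in either direction by edgeR, and DESeq2 also called 0. Over all genes tested, edgeR called 14.7% higher and 15.2% lower. At an unadjusted p-value under 0.05, 0 were higher and 3 were lower, with no count over all genes made at that level. The limma fit on log2(FPKM + 1) called 3 lower, beside 3267 lower of all 14618 genes tested. The 3 with the lowest values were Trit1, which modifies the Sec tRNA among others (log2 fold change -0.39, edgeR adjusted p = 0.064), Scly, which recovers selenium from Sec (-0.30, edgeR adjusted p = 0.12), and Trnau1ap, a Sec tRNA binding protein (-0.28, edgeR adjusted p = 0.099). The median of the 14 was -0.066. Secisbp2 had 28.2 and 31.8 CPM on average with a log2 fold change of 0.17 (edgeR adjusted p = 0.35), and Eefsec had -0.071 (edgeR adjusted p = 0.79).

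Of 14 ER genes that work with these selenoproteins, 13 were tested, of which 3 were higher, 1 was lower and 9 did not pass the threshold, with a median log2 fold change of -0.055. With 14.7% of all genes tested higher and 15.2% lower, these counts are near the background. Both partners of Selenof were higher, Uggt1 from 119 ± 9.07 to 177 ± 12.8 CPM and Uggt2 from 2.85 ± 0.39 to 4.85 ± 0.40 CPM (SD, n = 3 each), with log2 fold changes of 0.57 and 0.76. Syvn1, the ubiquitin ligase also called HRD1, had 0.32 (edgeR adjusted p = 0.016), which was 0.19 with library size alone (edgeR adjusted p = 0.21). Over the alternatives the adjusted p-value of Uggt2 reached 0.065 and that of Uggt1 0.027. Nploc4, a p97 cofactor, was lower at -0.32 (edgeR adjusted p = 0.027), and lost the call without either of control replicates 1 and 3, and without either of optimized replicates 2 and 3. Derl1 and Derl2, the Derlins that Selenok and Selenos bind, had -0.055 and -0.12, p97 itself (Vcp) had -0.26 with an edgeR adjusted p-value of 0.064, and Zdhhc6 had 0.073. Derl3 was below the count filter, with 2 to 5 counts per control library and 6 to 30 per optimized library. It was called higher by DESeq2 (2.68, adjusted p = 0.0085) and by edgeR without a count filter (2.62, adjusted p = 0.0060).

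**Figure D5:**
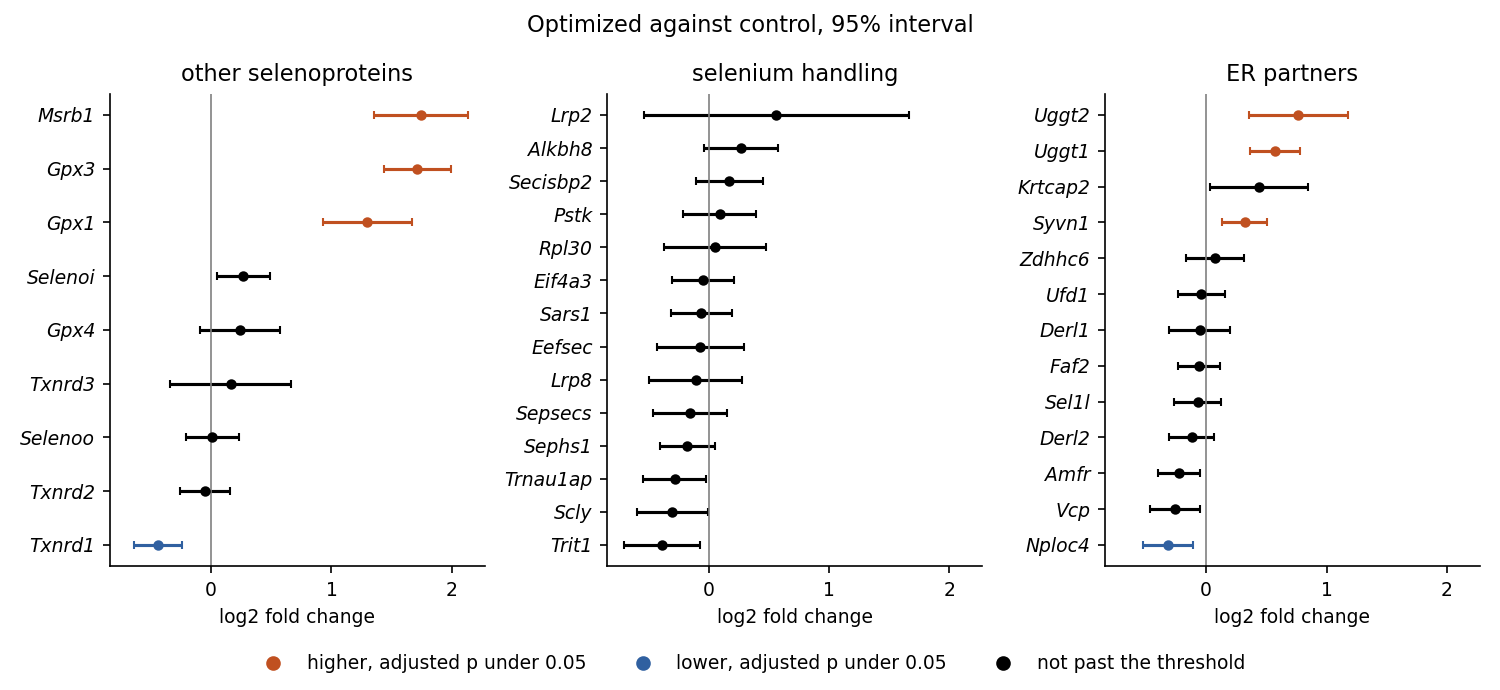
Log2 fold changes with 95% intervals for the tested genes among the other selenoproteins, the selenium handling genes and the ER partners. Msrb1, Gpx3 and Gpx1 lie to the right at 1.74, 1.71 and 1.30, the selenium handling genes lie between -0.39 and 0.56 with 0 past the threshold, and Uggt2 and Uggt1 lead the ER partners.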

How the data were processed

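RNA from 3 control and 3 stimulated (optimized) microglia cultures was analysed. Paired-end reads had been aligned by HISAT2 (build mm39) and counted per gene symbol by featureCounts in Galaxy, and the authors deposited raw counts without normalization. The deposited FPKM values equal these counts after scaling by 1 factor per gene and 1 factor per library. Versions, annotation and strand setting are not given in the sources used here. The study describes the libraries of a condition as biological replicates, while the labels give replicate numbers without naming separate cultures or animals. The p-values set the difference between conditions against the variation between these libraries.

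The count analysis used edgeR 4.0.16 under R 4.3.3: filterByExpr, TMM scaling, and the quasi-likelihood test (glmQLFit, glmQLFTest) with condition as the sole term over 14618 genes, with Benjamini-Hochberg adjusted p-values called at 0.05. The standard error is the log2 fold change divided by the square root of F. The common coefficient of variation between replicates was 0.13, to which counting noise adds most in members with few counts, such as Selenoh. Libraries of 1 condition differed by more than sampling noise, so none was a copy. Alternatives were DESeq2 1.42.0, scaling by relative log expression or by library size alone, other count filters, a replicate block, omission of each library in turn, removal of a length trend, and limma 3.58.1 on log2(FPKM + 1) or log2(FPKM + 0.1), scales that understate changes of low genes. The FPKM fits used no TMM scaling. Their median log2 fold changes over all genes were between -0.087 and -0.133, beside -0.12 with library size alone. The model fits were tested on simulated counts.

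Positions and Sec codons come from GENCODE M39 on GRCm39. The members and lists were chosen with earlier results of these data known. Named genes are the members, genes of the lists, and for each member the 3 genes with the nearest profile. Ccdc152, Hs2st1 and Smtn were named for their exon overlap. A further microglial marker is not reported here.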

Additional observations from a re-analysis of the deposited data

How the results depend on the processing

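Sephs2, Selenow, Selenoh and Selenom were higher with an adjusted p-value under 0.05 in all 16 alternatives, Selenof in 15, Selenon in 12 and Selenot in 9, each with the same direction throughout. Between 5 and 8 members were called higher. With library size alone 5 members were higher, beside 1513 of all 14618 genes tested. Without stimulated replicate 1, 8 members were higher, beside 2591 of all 14916 genes tested. Calls of lower members were 0 or 1, the 1 being Selenop, with library size alone, DESeq2, the replicate block, each FPKM fit and the length trend removed, and 0 to 1 without a library. Its adjusted p-value in the 16 was between 0.0067 and 0.27. Selenok had a negative log2 fold change with library size alone (-0.066), without stimulated replicate 2 (-0.028, the range without a library being -0.028 to 0.19) and in limma on log2(FPKM + 1), log2(FPKM + 0.1) and log2(FPKM + 1) restricted to mean FPKM of 1 or more (-0.075, -0.077 and -0.075). Selenium handling genes called lower were 0 with TMM, all 6 libraries and condition as the sole term. They were 3 with library size alone and in each FPKM fit, 1 with the replicate block, and 0 to 3 without a library. Of the ER partners, those called higher went from 3 to 1 in each FPKM fit, and to between 2 and 5 without a library. Those called lower went from 1 to 3 with library size alone, DESeq2, the replicate block, each FPKM fit and the length trend removed, and to between 0 and 2 without a library. Of all 14618 genes, 3168 were lower with library size alone, 2523 with the replicate block and 2680 with the length trend removed. DESeq2 called 2210 of 24007 lower, and limma on log2(FPKM + 1) called 3267 lower and 1472 higher of 14618. Without a library, between 1603 and 2591 genes were higher and between 1646 and 2643 lower. Over all genes, 1176 of 11572 tested were higher in the limma fit restricted by mean FPKM, against 2142 of 14618 by edgeR with TMM. The cause of these shifts was not tested. Deviations of same-numbered libraries from their group means correlated at 0.27, -0.012 and 0.18. Control replicate 3 correlated slightly better with stimulated replicate 2 (0.19) than with its own number. As the deviations of the 3 libraries of a group depend on each other, these values cannot decide whether replicate numbers pair the libraries. With the replicate block 4924 genes were called against 4360, and 7 members were higher. Selenoh and Selenom had the fewest counts, with 100 to 182 per control library. Their standard errors were 0.19 and 0.20, beside 0.20 for Selenow.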

Other observations

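For each member, the genes with the most similar profile were sought over the 6 libraries, by the root mean square distance between log2 CPM values centred on each gene's own mean, among 9838 other genes with a mean of at least 5 CPM. With 2 conditions in 6 libraries, the measure rests on the size of the change and the order of the libraries, and is given as a description. For Selenow the nearest genes were Syngr1 (distance 0.10), Selenom (0.11), a selenoprotein of the same shortest length bin, and H2-DMb2 (0.11). For Selenom they were Tst (0.067), which encodes thiosulfate sulfurtransferase, Zfp503 (0.098) and H2-DMb2 (0.11), and for Selenoh H2-Ab1 (0.10), Ypel3 (0.11) and Rhov (0.12). For Selenop they were Taf11, Bin3 and Ap3m2, with log2 fold changes of -0.29, -0.25 and -0.29, and for Sephs2 they were Rftn1, Hacd2 and Laptm4b, with 0.81, 0.85 and 0.97. The nearest gene was TrnA for Selenot (0.020), Hmga2-ps1 for Selenof (0.026), H2az1 for Selenok (0.022), Mef2bl for Selenos (0.021) and Pygo2 for Selenon (0.024).

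Dio2, the selenoenzyme that activates thyroid hormone, was below the count filter, with 0.26 CPM on average in control and 1.24 CPM in optimized cultures and overlapping libraries. Optimized replicates 1 to 3 had 33, 5 and 40 counts, against 5 to 7 per control library. DESeq2 (log2 fold change 2.26, adjusted p = 0.019) and edgeR without a count filter (2.21, adjusted p = 0.010) called it higher. Selenok-ps1, a listed copy of Selenok, had at most 1 count in any library.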
